A study of Homo sapiens with 9 samples.

Results

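Messenger RNA levels were compared between 3 libraries labelled SM2 and 3 labelled NC, which were chosen by their titles alone and make up 6 of the 9 libraries of the series. All of them came from OVCAR5, a human epithelial ovarian cancer line. Per the labels, all of these cells had received a lentivirus and puromycin and were grown out as stable lines in RPMI medium before TRIzol extraction and poly(A) enrichment. Per the labels SM2 stands for a knockdown of METTL3 and NC for the control, which the labels call parental and the methods of the study call a control hairpin. The labels do not name the hairpin behind SM2, it is not said whether a line was a pool or a clone, and nothing says that replicates were separate cultures, so p-values here measure the spread between these libraries, which may be technical. The 3 libraries labelled SM4, a further METTL3 knockdown per the labels whose source field carries other OVCAR numbers, entered the same fit and are quoted only beside results for SM2.

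METTL3 is the enzyme that, together with METTL14 and their adaptor proteins, writes the N6-methyladenosine (m6A) mark on adenosines of messenger RNA. Reader proteins bind the mark and change how long a transcript lasts, how it is spliced or how well it is translated, and the demethylases FTO and ALKBH5 can remove it. The study asked how METTL3 relates to the response of ovarian cancer cells to cisplatin, and by its labels the comparison sets a knockdown beside its control, which the level of METTL3 below puts in doubt.

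METTL3 itself did not separate the groups in the direction of the labels. It stood at 36.3, 34.4 and 36.6 CPM (gene counts scaled to a common library size) in the NC libraries and at 37.1, 39.8 and 40.0 CPM in the SM2 libraries. All SM2 values lay above all NC values, by 0.12 ± 0.05 on the log2 scale (fold change ± SE; edgeR adjusted p = 0.12), which missed the threshold of 0.05, and with per-library trends over transcript length and GC content removed the same difference was 0.16 (adjusted p = 0.031). The SM4 libraries stood at 60.2 ± 2.48 CPM (mean ± SD, n = 3), above SM2 by 0.63 (adjusted p = 7.46e-08) and above NC by 0.75 (adjusted p = 2.21e-09). METTL3 lies at chr14:21498133-21511342 (GRCh38, minus strand), and TOX4 on the other strand overlaps it. The transcript goes against the labels: the group labelled as control held the least METTL3 and a group labelled as knockdown the most. Which group is the control was not settled here. The libraries labelled SM4 may be it, in which case SM2 against NC would set a pair of knockdown lines beside each other. Groups were kept as labelled, and every direction below is that of the libraries labelled SM2 relative to those labelled NC, not an effect of less METTL3.

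The cells carried an epithelial transcriptome in both groups. In unnormalised CPM, the 6 epithelial markers EPCAM, KRT7, KRT8, KRT18, KRT19 and CDH1 summed to 10871 to 11270 in NC and 12264 to 12905 in SM2. The higher sum was carried by KRT8, KRT18 and KRT19. EPCAM, KRT7 and CDH1 had lower means in SM2, at 625.6, 986.5 and 682.0 against 702.7, 1056.8 and 808.2 in NC. Of the ovarian markers, MUC16, MSLN, FOLR1, WFDC2 and PAX8 were present, while WT1, SOX17 and EMX2 were below 0.5 CPM in all 6 libraries. Markers of other cell types were mostly near 0, with 7 of 10 fibroblast, 8 of 10 blood, 8 of 10 endothelial and 6 of 10 neural genes below 0.5 CPM in all 6. Among them PTPRC, CD3E, COL1A2, DCN, VWF and CDH5 were at or near 0, and HBB, HBA1 and KDR had no count at all. The summed blood list was nonetheless 40.9 to 45.5 CPM in NC and 58.8 to 63.8 in SM2, carried by LYZ and CD14, and the endothelial list 6.26 to 7.13 against 9.04 to 10.3, carried by PECAM1.

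Depth was similar in both groups, at 44103272 to 58503501 counts in NC and 46011123 to 52630857 in SM2, so that a gene at 1 CPM rested on 44.1 to 58.5 counts. SM2 replicate 3 stood apart from its own group. A chi-square test of its counts against the other SM2 libraries gave 16.72 and 13.81 per degree of freedom, while the other replicate pairs of the series gave 4.207 to 6.036, where sampling alone gives about 1. Counts without it are given beside the lists whose balance moved most.

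Across the transcriptome, 4389 of 19674 tested genes passed the test (22.3%), of which 2367 were higher in SM2 (12%) and 2022 lower (10.3%). An unadjusted p below 0.05 was reached by 6487 genes. The 3 libraries of a group lay wholly beyond those of the other for 35.2% of genes. Most differences were small: the median absolute log2 fold change of a called gene was 0.39 for higher and 0.26 for lower genes, and 947 of the higher and 1300 of the lower genes moved by under 1.25-fold. Large changes ran mostly upward. At least 2-fold higher were 372 genes (1.89%) and at least 2-fold lower 72 (0.366%), and at a mean of at least 1 CPM these were 163 and 16. At least 4-fold higher with at least 1 CPM were 19 genes, and 0 were 4-fold lower by edgeR at adjusted p below 0.05, with 0 at an unadjusted p below 0.05 and 0 by DESeq2. In 17 of the 372 and 5 of the 72, a group held at most 3 counts in each of its libraries, so those fold changes have no firm size.

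**Figure D1:**
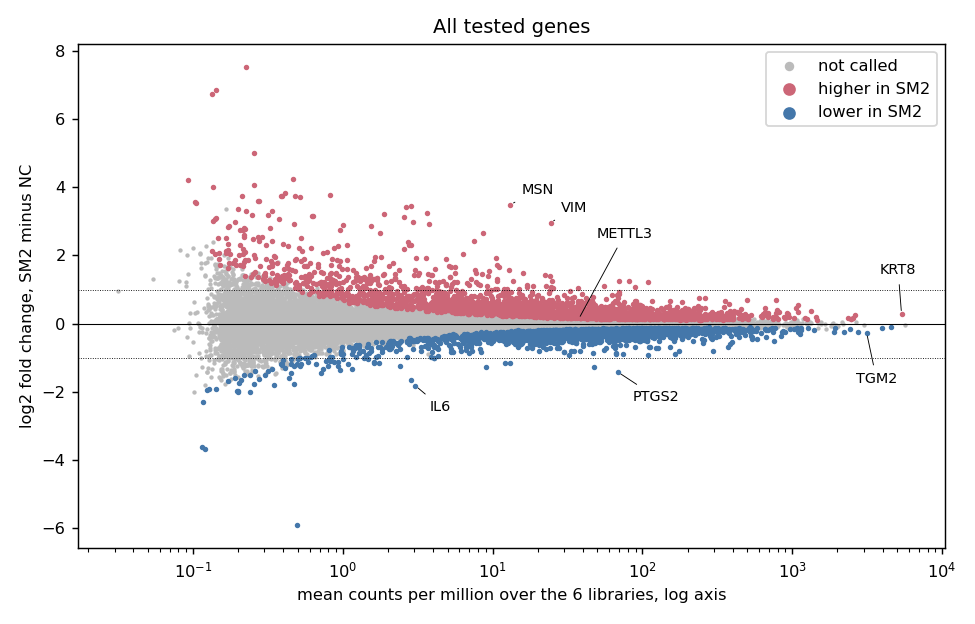
Each point is a tested gene, with its mean level over the 6 libraries (CPM, log axis) against its log2 fold change in SM2 minus NC, coloured where the gene was called; dotted lines mark a 2-fold change. The 372 genes past the upper line outnumber the 72 past the lower line, and MSN and VIM stand out among genes over 10 CPM.

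Genes of different kinds took unequal shares. Protein-coding genes were called higher in 15.9% and lower in 13.5% of 13785 tested, and long non-coding RNAs in 3.75% and 2.83% of 3147. Of the genes at least 2-fold higher, 326 were protein-coding and 37 long non-coding, while of those at least 2-fold lower 27 were protein-coding and 25 long non-coding. Higher genes had a median level of 19.8 CPM and lower genes of 46.5 CPM. They also differed in base composition, with a median GC content of 54.5% for higher and 44.5% for lower genes. Among genes of at least 1 CPM, the fifth with the lowest GC content had 7.84% called higher and 20.8% lower, and the fifth with the highest had 27.7% and 7.29%. This tilt moved with the groups in every library, since the slope of a library's deviation per 10% of GC content was −0.0734, −0.0573 and −0.0246 in NC and 0.0042, 0.0392 and 0.0461 in SM2. With the trends removed, the median fold changes at the lowest and highest GC content went from −0.066 and 0.084 to −0.002 and −0.022, and 2393 genes were called higher and 2249 lower. Counts with the trends removed are given beside the lists whose balance moved most.

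The largest rises included genes of the cytoskeleton and cell surface. MSN, which encodes moesin, a linker of actin to the plasma membrane (chrX:65588377-65741931, plus strand), was at 2.1, 2.83 and 1.5 CPM in NC and at 25, 22.8 and 24.5 CPM in SM2. The groups were far apart, with an 11.3-fold rise (log2 3.49 ± 0.13, adjusted p = 5.9e-13). The intermediate filament gene VIM (chr10:17228241-17237593, plus strand), a marker of mesenchymal cells, rose from 6.3, 5.74 and 4.72 CPM to 42.6, 41.6 and 45 CPM, which was 7.76-fold (log2 2.96 ± 0.10, adjusted p = 6.09e-14). VIM was at 14.1 CPM in SM4, below SM2 by 1.61 on the log2 scale (adjusted p = 9.37e-11), and MSN at 11.4 CPM, below it by 1.08 (adjusted p = 6.1e-07). Antisense genes overlap VIM, and their reads could not be told apart from its own, since the strand setting of the counting is not given in the sources used here.

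The other 10 of the 12 protein-coding genes with the largest rise had under 3 CPM in NC. VCAM1, an adhesion receptor for leukocyte integrins, went from 0.707, 0.313 and 0.564 CPM to 4.99, 4.16 and 4.58 CPM, and reached 10.3 CPM in SM4. The junctional adhesion molecule JAM3 went from 0.753, 0.736 and 0.581 CPM to 6.76, 6.49 and 6.43 CPM. Both were under 1 CPM in each NC library and over 4 CPM in each SM2 library. AUTS2, a regulator of transcription and of the actin cytoskeleton, rose by 3.46 ± 0.24, the tetraspan gene TM4SF4 by 3.42 ± 0.20, the Hippo pathway scaffold AMOT by 3.23 ± 0.21 and the RNA-binding protein gene BICC1 by 2.99 ± 0.17 on the log2 scale. PALM, PNMA2, the iron reductase gene CYBRD1 and IGFBP5, which binds insulin-like growth factors, rose by 2.92, 2.87, 2.67 and 2.66. The adjusted p of these 12 genes was at most 1.58e-07. The difference between SM4 and SM2 (12.8% of all tested genes were called in that comparison) missed the threshold for TM4SF4 (0.25, adjusted p = 0.317), AMOT (−0.25, adjusted p = 0.345) and PALM (−0.18, adjusted p = 0.375), while IGFBP5 was lower in SM4 by 2.12 (adjusted p = 2.53e-06).

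**Figure D2:**
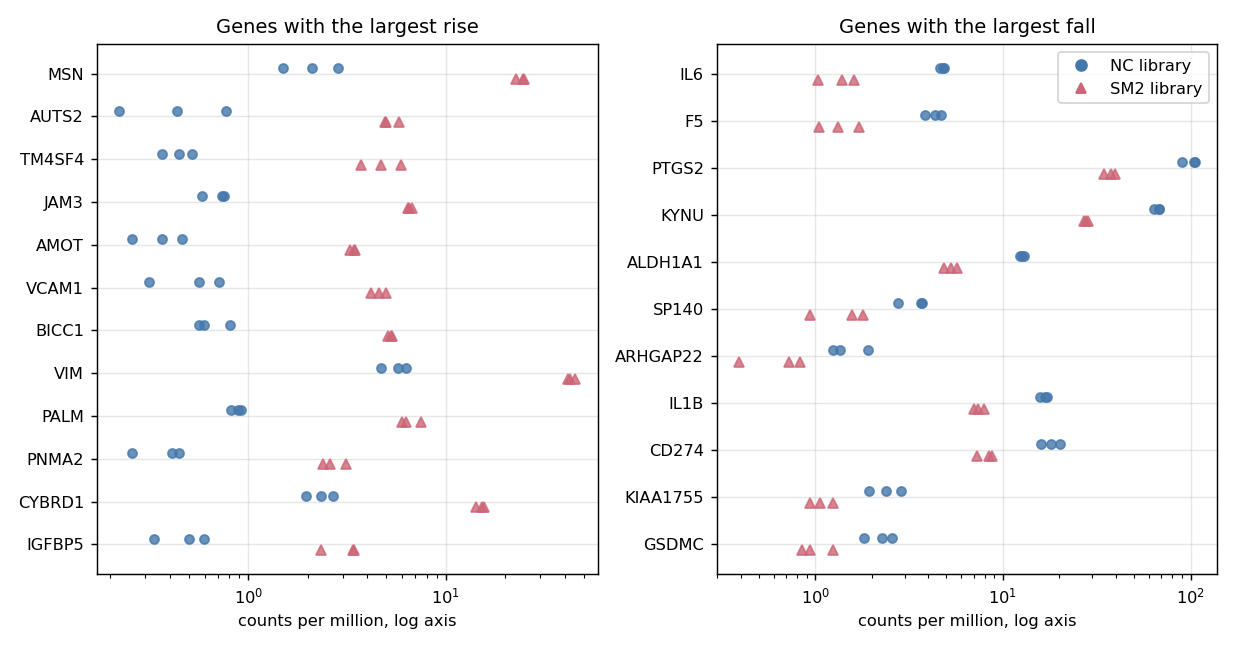
CPM (log axis) of reported genes among the 12 protein-coding genes with the largest rise and the 12 with the largest fall in SM2, from called genes of at least 1 CPM whose groups do not overlap; each circle is an NC and each triangle an SM2 library. MSN goes from 1.5 to 2.83 CPM in NC to 22.8 to 25 in SM2, and PTGS2 from 89.8 to 105.2 down to 34.7 to 39.4.

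Genes of inflammation were among those that fell most. IL6, the cytokine interleukin 6 (chr7:22725884-22732002, plus strand), was at 4.77, 4.62 and 4.84 CPM in NC and at 1.6, 1.04 and 1.38 CPM in SM2, a fall of 1.82 ± 0.16 on the log2 scale (adjusted p = 3.82e-08). PTGS2, the inducible enzyme of prostaglandin synthesis known as COX-2 (chr1:186671791-186680922, minus strand), went from 105.2, 89.8 and 104.6 CPM to 37.7, 39.4 and 34.7 CPM (log2 −1.42 ± 0.06, adjusted p = 2.56e-12). KYNU, which breaks down kynurenine, went from 68.2, 67.9 and 64.2 CPM to 27.2, 27.8 and 28.4 CPM (log2 −1.26 ± 0.05, adjusted p = 2.42e-12). PTGS2 and KYNU were more than 2-fold lower in every SM2 library than in any NC library. IL1B, which encodes interleukin 1 beta, fell by 1.15 ± 0.08, CD274, which encodes the immune checkpoint ligand PD-L1, by 1.14 ± 0.10, and F5, coagulation factor V, by 1.65 ± 0.18. SM4 was below NC as well for PTGS2 (33 CPM), KYNU (23.2 CPM), F5 (1.43 CPM) and IL1B (9.1 CPM). Its difference from SM2 missed the threshold for PTGS2 (−0.17, adjusted p = 0.0844) and F5 (0.06, adjusted p = 0.896). IL6 and CD274 were higher in SM4 than in SM2, by 1.08 (adjusted p = 7.71e-05) and 0.77 (adjusted p = 2.76e-05). ALDH1A1, an aldehyde dehydrogenase used as a marker of stem-like tumour cells, was at 12.7, 12.9 and 12.3 CPM in NC and 5.32, 4.85 and 5.68 CPM in SM2, while SM4 stood at 12.7 CPM, above SM2 by 1.26 (adjusted p = 4.33e-09). SP140, ARHGAP22, KIAA1755 and GSDMC were also among the 12 largest falls, at 1.12 to 1.23 on the log2 scale, all from under 4 CPM.

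Cytokines moved in both directions. Of 27 tested chemokines and inflammatory cytokines, 7 were called higher and 10 lower (median log2 fold change −0.13, against −0.004 over all tested genes). Besides IL6 and IL1B, the neutrophil chemokine CXCL8 fell from 193.8, 193.3 and 178.3 CPM to 114.0, 109.6 and 125.4 CPM (log2 −0.70 ± 0.06, adjusted p = 1.47e-08). CSF2, IL1A, IL18, CXCL6, CCL20, CXCL1 and LIF were the other members that fell, by 0.16 to 0.62. In the opposite direction TNFSF10, the death ligand TRAIL, rose from 7.32, 7.91 and 9.09 CPM to 17.0, 20.1 and 20.7 CPM (log2 1.25 ± 0.09, adjusted p = 4.82e-09). CXCL5 rose from 51.8, 49.3 and 51.4 CPM to 90.9, 79.4 and 85.8 CPM (log2 0.75 ± 0.06) although SM4 lay at 27.6 CPM. CCL2, CXCL10, CSF1, TNFSF15 and CCL28 also rose, CCL2 from at most 0.205 CPM to between 1.31 and 1.92 CPM. Among 18 NF-κB subunits and feedback genes, 1 rose, CYLD by 0.28, and 2 fell, BIRC3, an inhibitor of apoptosis, by 0.50 ± 0.04 and TNIP3 by 0.97 ± 0.14. CYLD was not called without NC replicate 2 or without SM2 replicate 2. NFKB1 and NFKBIA were not called, at −0.10 and −0.12, and the counts were 1 and 6 with the trends removed and 2 and 3 without SM2 replicate 3.

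Enzymes around PTGS2 and KYNU moved in different directions. Of 17 tested enzymes of prostaglandin and kynurenine metabolism, 5 rose and 3 fell. PLA2G4A, the phospholipase that releases arachidonic acid for PTGS2, fell by 0.40, whereas PTGES3 rose by 0.43 ± 0.04 and HPGD, which degrades prostaglandins, by 0.41. On the kynurenine side IDO1, which opens the pathway from tryptophan, rose from 1.12, 0.625 and 0.991 CPM to 2.23, 2.08 and 1.96 CPM, and QPRT, which makes a precursor of NAD, from 49.2, 52.8 and 56.2 CPM to 81.4, 82.2 and 84.4 CPM (log2 0.65 ± 0.05, adjusted p = 1.03e-08). With the trends removed 5 members rose and 4 fell.

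MHC class I genes were higher in SM2. Class I molecules such as HLA-B and HLA-C with B2M present peptides cut by the immunoproteasome to T cells, and TAPBP and the TAP transporter load those peptides. Of 20 tested genes of class I presentation, 13 were called higher and 1 lower, with a median log2 fold change of 0.30. The count was 13 and 1 without SM2 replicate 3 and 13 and 0 with the trends removed. HLA-B (chr6:31353872-31367067, minus strand) went from 297.2, 302.4 and 302.3 CPM to 430.8, 424.2 and 501.9 CPM (log2 0.59 ± 0.05, adjusted p = 7.75e-08). B2M, the shared light chain, went from 971.8, 963.4 and 968.9 CPM to 1123, 1184 and 1378 CPM (log2 0.34 ± 0.05). SM2 replicate 3 was the highest library for both, and the other SM2 libraries still exceeded every NC library. The immunoproteasome subunits PSMB10, PSMB9 and PSMB8 rose by 0.57, 0.49 and 0.32, HLA-F by 0.62, TAPBP by 0.45 and NLRC5, the transactivator of class I genes, by 0.53. The transporter chains were apart from these, with TAP1 at 0.07 (not called) and TAP2 lower by 0.13 (adjusted p = 0.045). SM4 stood at 416.3 CPM for HLA-B, 27.7 CPM for PSMB10 and 265.0 CPM for TAPBP, all above NC. For these genes the difference between SM4 and SM2 missed the threshold (adjusted p = 0.158, 0.663 and 0.89). HLA-F was lower in SM4 than in SM2 by 0.25 (adjusted p = 0.0224). HLA genes are near-identical in places and their reads may have been shared out among them, so their single values are uncertain.

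Interferon-stimulated genes overlap class I only in part. Of 44 tested interferon-stimulated genes, 11 were called higher and 1 lower (median 0.07), also without SM2 replicate 3 and with the trends removed. IFIT3 rose by 0.37 ± 0.06, IFIT1 by 0.35 ± 0.06, IFITM3 by 0.29 ± 0.05 and ISG20 by 0.45 ± 0.08, all effectors that block viral replication or entry. IFIT3 stood at 19.8, 19.0 and 18.9 CPM in NC and 25.9, 24.4 and 24.2 CPM in SM2, and higher again in SM4 by 0.41 (adjusted p = 4.23e-05). ISG15, MX1 and IRF7 were not called, at 0.05, 0.03 and 0.05, and OAS3 fell by 0.24.

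Cholesterol synthesis was the list with the largest share of called members of all lists described, 21 higher and 1 lower of 25, beside 12% and 10.3% of all tested genes. The median log2 fold change was 0.36, the counts were 19 and 1 without SM2 replicate 3 and 22 and 1 with the trends removed, and the summed level of the list went from 2125 to 2174 CPM in NC to 2727 to 2832 CPM in SM2. These genes are known targets of the transcription factor SREBP-2, the product of SREBF2, which is released from the endoplasmic reticulum when sterol is scarce. The regulators came first. INSIG1, which holds SREBP in the endoplasmic reticulum, rose from 49.2, 48.8 and 46.4 CPM to 89.3, 81.9 and 88.7 CPM (log2 0.85 ± 0.05, adjusted p = 4.02e-10), and SREBF2 from 126.0, 120.1 and 127.9 CPM to 181.6, 181.2 and 169.1 CPM (log2 0.51 ± 0.04, adjusted p = 5.35e-08). Neither of them overlapped between the groups. SM4 stood at 50 CPM for INSIG1, below SM2 by 0.79 (adjusted p = 1.87e-09).

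Enzymes rose at early, middle and late steps of the pathway. HMGCS1, an early enzyme of the pathway, went from 128.8, 123 and 129.0 CPM to 191.7, 176.3 and 158.7 CPM (log2 0.47 ± 0.05, adjusted p = 2.23e-06). MVK, MVD, IDI1 and FDPS, which build the isoprenoid units, rose by 0.51, 0.42, 0.41 and 0.24, FDFT1 and SQLE, which make squalene and its epoxide, by 0.41 and 0.25, and LSS, which closes the sterol rings, by 0.60 ± 0.05. MSMO1, TM7SF2, NSDHL, HSD17B7 and DHCR7 of the late steps rose by 0.32 to 0.61. CYP51A1, EBP and SC5D were positive without being called, at 0.21, 0.20 and 0.09. PMVK, the kinase between MVK and MVD, was the exception, falling from 28.7, 31.2 and 31.7 CPM to 23.1, 22.5 and 25.6 CPM (log2 −0.36 ± 0.07, adjusted p = 0.000439). Fatty acid synthesis, the other SREBP programme, had 10 of 20 members higher and 2 lower. SCD, the stearoyl-CoA desaturase, rose from 395.1, 366.5 and 383.9 CPM to 653.2, 634.7 and 576.3 CPM (log2 0.70 ± 0.05), ACSS2 by 0.68, SREBF1 by 0.43 and FASN by 0.32, while ACLY and ACACA were not called.

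Targets of NRF2 were lower in SM2. NRF2, encoded by NFE2L2, switches on genes for glutathione, thioredoxin and NADPH supply after oxidative stress. Of 27 tested targets, 0 were called higher by edgeR and 14 lower, with a median log2 fold change of −0.21. The counts were 0 and 15 without SM2 replicate 3, 0 and 15 with the trends removed, and by sign 3 of the 27 were positive. At an unadjusted p below 0.05 they were 0 and 16, and by DESeq2 0 and 14. GCLM, the modifier subunit of the enzyme that opens glutathione synthesis (chr1:93885199-93909456, minus strand), fell from 85.7, 90.5 and 83.8 CPM to 50.6, 46.1 and 43.3 CPM (1.86-fold, log2 −0.89 ± 0.06, adjusted p = 1.08e-09). ME1, a source of NADPH, fell from 70.9, 70.8 and 67.1 CPM to 41.3, 39.7 and 41.6 CPM (log2 −0.77 ± 0.05, adjusted p = 1.03e-09). The quinone reductase NQO1 fell from 488.2, 495.8 and 500.7 CPM to 369.5, 374.3 and 399.8 CPM (log2 −0.38 ± 0.04) and the haem oxygenase HMOX1 from 24, 28.9 and 27.5 CPM to 20.4, 15.6 and 18.9 CPM (log2 −0.56 ± 0.09). In all 4 the SM2 libraries lay below the NC libraries. GCLC, GSR, TXNRD1, the ferritin chains FTL and FTH1, and SLC7A11, which imports cystine, fell by 0.14 to 0.28. NFE2L2 and its inhibitor KEAP1 themselves were at −0.02 and −0.01 and were not called.

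**Figure D3:**
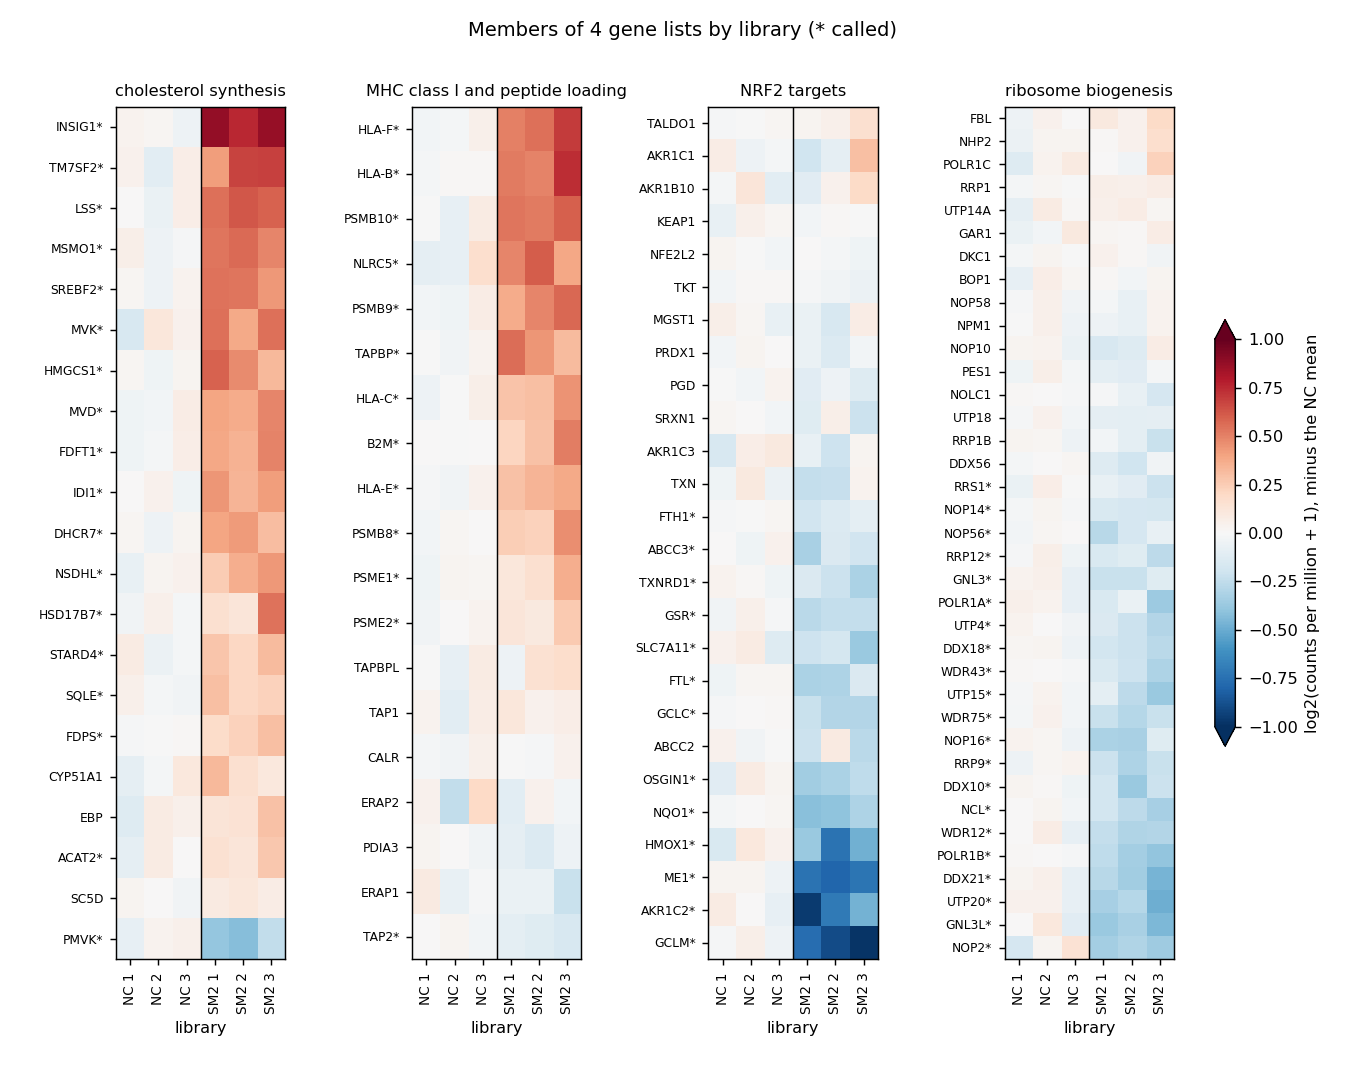
Reported members of 4 gene lists (rows, ordered by fold change) in the 6 libraries (columns), coloured by log2(CPM + 1) minus the mean of the NC libraries and cut at 1 in both directions; an asterisk marks a called gene. The called cholesterol genes other than PMVK and the called class I genes other than TAP2 are red in the SM2 columns, and the called NRF2 targets and ribosome biogenesis genes are blue.

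Promoter letters of these programmes are shown because the cholesterol and NRF2 lists moved as groups in opposite directions. The sterol regulatory element, as the letters capitalised in SREBF2 below with any base at the sixth place, was searched on both strands of the 250 bases before each RefSeq start site and was found in 1 of 18 cholesterol promoters with sequence (5.56%) and in 10 of 12218 promoters of tested genes (0.0818%). The core of the antioxidant response element, TGACNNNGC, likewise on both strands, was in 4 of 19 NRF2 target promoters (21.1%) and in 1478 of 12218 (12.1%). The stretches below hold the match in capitals and read 5′ to 3′ on the strand of the gene (RefSeq, GRCh38.p14). They are SREBF2 at chr22:41832946-41833005 (plus strand), GCLM at chr1:93909431-93909489 (minus strand), TXNRD1 at chr12:104215655-104215713 (plus strand) and ME1 at chr6:83431155-83431213 (minus strand).
SREBF2: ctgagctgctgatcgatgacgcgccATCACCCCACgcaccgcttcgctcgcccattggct
GCLM: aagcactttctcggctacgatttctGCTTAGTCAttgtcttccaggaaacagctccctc
TXNRD1: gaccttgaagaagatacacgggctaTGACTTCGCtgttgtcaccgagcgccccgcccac
ME1: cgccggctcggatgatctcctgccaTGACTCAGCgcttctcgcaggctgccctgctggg
The match in SREBF2 began 134 bases before the start site, and those in GCLM, TXNRD1 and ME1 began 34, 99 and 137 bases before it. PGD, the remaining NRF2 target with the letters, was not called (log2 −0.10). A match is a run of letters and shows no binding.

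Many genes that build ribosomes and drive mitosis were lower. Of 37 tested ribosome biogenesis genes, 0 were called higher by edgeR and 21 lower (median −0.17), with 0 and 20 without SM2 replicate 3 0 and 24 with the trends removed, 1 and 24 at an unadjusted p below 0.05 and 0 and 22 by DESeq2. DDX21, a helicase of ribosomal RNA processing, fell from 448.1, 457.2 and 417.0 CPM to 363.3, 345.2 and 318.5 CPM (log2 −0.36 ± 0.05, adjusted p = 1.31e-05). POLR1B, a subunit of RNA polymerase I, fell from 107.9, 107.2 and 106.5 CPM to 89.9, 84.5 and 81.1 CPM (log2 −0.33 ± 0.05), UTP20 by 0.37 ± 0.05, GNL3L by 0.39 ± 0.06 and the nucleolar protein gene NCL by 0.26 ± 0.04. SM2 and NC did not overlap for any of these 5. The ribosomal proteins themselves were not lower as a group, with 9 of 84 called higher and 1 lower (median 0.05). With the trends removed these were 8 and 3, and without SM2 replicate 3 they became 5 higher and 13 lower, so the balance of calls turned on that library.

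Of 39 mitosis genes, 2 were called higher and 14 lower (median −0.07), 2 and 15 without SM2 replicate 3 and 1 and 12 with the trends removed. The checkpoint kinase gene BUB1B fell from 145.6, 154.0 and 146.9 CPM to 129.6, 121.2 and 112.3 CPM (log2 −0.30 ± 0.05, adjusted p = 0.000138) and the kinetochore motor CENPE by 0.28 ± 0.05, while PLK1 rose by 0.21 ± 0.04. DNA replication was split, with 10 of 41 higher and 6 lower (6 and 8 with the trends removed). LIG1, E2F1, TK1 and MCM2 rose by 0.19 to 0.24, and E2F1 and TK1 were not called once the trends were removed. Of 34 proteasome subunits, 1 was higher and 8 lower (0 and 12 without SM2 replicate 3), led by the regulatory particle subunits PSMD12 (−0.32 ± 0.04) and PSMD5 (−0.33 ± 0.06), whereas the immunoproteasome subunits above had risen. Of 30 homologous recombination genes, 1 was higher (3.33%) and 4 lower (13.3%), the lower share being near the 13.5% of protein-coding genes. The counts were 3 and 3 without SM2 replicate 3 and 3 and 4 with the trends removed. FANCM fell by 0.40 ± 0.06, XRCC2 by 0.34 ± 0.06, BRCA2 by 0.24 ± 0.06 and ATM by 0.18, and RBBP8 rose by 0.20. BRCA2 was not called without NC replicate 1 (−0.20, adjusted p = 0.067). BRCA1 was at 0.01 and was not called.

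Targets of ATF4, the transcription factor of amino acid shortage, were mostly higher. Of 24 tested targets, 13 were called higher and 1 lower (median 0.21), 13 and 1 without SM2 replicate 3, and 12 and 3 with the trends removed. DDIT4, an inhibitor of the mTORC1 kinase, rose from 274.5, 277.6 and 278.2 CPM to 411.7, 434.4 and 465.2 CPM (log2 0.66 ± 0.05, adjusted p = 1.64e-09). PHGDH, the entry enzyme of serine synthesis, rose from 72.6, 76.7 and 68.8 CPM to 98.5, 99.4 and 107.3 CPM (log2 0.48 ± 0.05), and PSAT1 and PSPH of the following steps by 0.36 and 0.29. PCK2 rose by 0.45 ± 0.05, VLDLR, a lipoprotein receptor, by 1.17 ± 0.09, CTH, CHAC1 and TRIB3 by 0.82, 0.66 and 0.48 and ATF4 itself by 0.22. SLC7A11, also counted among the NRF2 targets, fell by 0.25, and ASNS and DDIT3 were not called, at 0.17 and 0.34. Of 22 genes of the unfolded protein response, 5 rose and 1 fell (6 and 2 with the trends removed). The rises were led by HERPUD1 (0.58 ± 0.06) and XBP1 (0.33 ± 0.04), and CANX fell by 0.20. The chaperone HSPA5 was at −0.02 and was not called.

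Ion channels were another group in which rises outnumbered falls, with 28 of 95 higher and 3 lower (22 and 4 with the trends removed). KCNQ1, a voltage-gated potassium channel of epithelia and heart, rose from 14.1, 14.0 and 15.2 CPM to 25.6, 26.1 and 24 CPM (log2 0.81 ± 0.07, adjusted p = 1.6e-08), and CLIC5 from 71.3, 62.5 and 71.4 CPM to 116.3, 111.2 and 99.4 CPM. KCNJ4 and KCNH2 rose by 1.70 ± 0.20 and 2.23 ± 0.30 from under 1 CPM. The chloride channel CFTR rose from 3.19, 3.15 and 3.78 CPM to 5.74, 5.33 and 5.57 CPM, while SM4 lay at 1.15 CPM. Of 33 tetraspan membrane proteins, 14 were higher and 1 lower (11 and 2 without SM2 replicate 3), TM4SF1 by 0.45 ± 0.04 and TSPAN4 by 0.41 ± 0.05 upward and TSPAN18 by 0.62 ± 0.05 downward. Of the 261 solute carriers 54 rose (20.7%) and 34 fell (13%), beside 15.9% and 13.5% of protein-coding genes. The counts became 49 and 44 with the trends removed. SLC1A4, a carrier of neutral amino acids, had the smallest adjusted p, going from 12.1, 11.7 and 11.8 CPM to 26, 24.8 and 25.2 CPM (log2 1.10 ± 0.07), and SLC43A1, another amino acid carrier, rose by 1.25 ± 0.12.

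Adhesion genes moved in both directions. Of 25 tested adhesion molecules, 8 rose and 10 fell (12 and 10 without SM2 replicate 3). JAM3, VCAM1 and the melanoma adhesion molecule MCAM were the largest rises, MCAM from 2.44, 2.24 and 2.46 CPM to 12.2, 13.1 and 12.8 CPM (log2 2.42 ± 0.10, adjusted p = 1.81e-12). CEACAM5, a carcinoembryonic antigen of gut and tumour epithelium, fell from 86.2, 81.9 and 88.6 CPM to 47.2, 48.2 and 47.0 CPM (log2 −0.85 ± 0.05, adjusted p = 1.59e-10). The epithelial cadherin CDH1 fell by 0.25 ± 0.05 and EPCAM by 0.18 ± 0.04, in both cases with every SM2 library below every NC library. Alongside VIM, the transcription factor ZEB1, a repressor of epithelial genes, rose from 2.97, 2.87 and 2.55 CPM to 5.71, 5.33 and 5.57 CPM (log2 0.99 ± 0.15). The wider set of 19 epithelial-mesenchymal genes had 6 higher and 6 lower (median −0.03). The mesenchymal genes FN1, SNAI2 and AXL were among those that fell, and the epithelial genes CD24 and OVOL2 among those that rose.

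Among matrix genes, the called laminins fell and the called collagens rose. Of 37 tested matrix genes, 7 were higher and 10 lower (7 and 13 with the trends removed). LAMA3, a chain of laminin-332, fell from 150.2, 141.7 and 138.2 CPM to 75.3, 79.7 and 72.1 CPM (log2 −0.92 ± 0.05, adjusted p = 2.99e-11), and LAMB1 from 224.4, 225.8 and 214.2 CPM to 126.7, 135.4 and 120.3 CPM (log2 −0.80 ± 0.05, adjusted p = 1.59e-10). LAMB3, LAMC1, LAMA4, NID2, TNC, THBS1 and FN1 also fell, by 0.18 to 0.79. COL6A2 rose from 13.8, 15.6 and 14.5 CPM to 35.2, 32.8 and 37.3 CPM (log2 1.26 ± 0.07, adjusted p = 7.63e-11), COL6A1 by 0.73 ± 0.05, and COL4A1, COL4A2, COL4A5, COL7A1 and COL17A1 by 0.45 to 1.26. Integrins, the receptors of these proteins, had 8 of 17 subunits higher and 2 lower (7 and 1 without SM2 replicate 3). The rises were in beta subunits, with ITGB2 at 0.66 ± 0.06 and ITGB8 at 0.61 ± 0.06, and in ITGA5 (0.30), and ITGA6, a laminin receptor chain, fell by 0.26 ± 0.04 with ITGB1 (−0.12). Of 21 matrix proteases and inhibitors, 9 were higher and 3 lower. PLAT, the tissue plasminogen activator, rose from 872.2, 872.5 and 914.1 CPM to 1297, 1292 and 1294 CPM (log2 0.55 ± 0.04), TIMP3 by 1.21 ± 0.12 and MMP7 by 0.50 ± 0.05.

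Keratins were higher in 9 of 17 and lower in 2. KRT8 and KRT18, the partner keratins of simple epithelia, gave the largest rises in absolute level. KRT8 went from 4695, 4921 and 4909 CPM to 5890, 5739 and 5988 CPM (log2 0.28 ± 0.04, adjusted p = 8.03e-06), and KRT18, whose gene overlaps that of KRT8 on the other strand in the annotation, rose by 0.24 ± 0.04. The 4 keratins with the smallest adjusted p rose more steeply than KRT8 and KRT18. KRT13 went from 5.27, 5.41 and 5.18 CPM to 16.4, 17.1 and 17.0 CPM (log2 1.67 ± 0.08, adjusted p = 3.84e-12) and KRT23 from 54.5, 58.9 and 58.5 CPM to 123.6, 122.4 and 117.6 CPM (log2 1.08 ± 0.05). KRT81 and KRT4 rose by 1.02 ± 0.10 and 1.70 ± 0.17. Of 25 lineage genes of ovary and gut, 8 rose and 5 fell. MUC16, which carries the tumour marker CA-125, rose from 9.7, 8.18 and 7.31 CPM to 23.2, 29.9 and 17.0 CPM (log2 1.48 ± 0.18), and mesothelin, MSLN, from 20.6, 19.2 and 19.8 CPM to 33.3, 32.0 and 36.6 CPM (log2 0.78 ± 0.06), while the mucin MUC5AC and the gut factor GATA6 fell by 0.69 and 0.52. In the ERBB family EGFR fell from 696.7, 674.5 and 644.8 CPM to 518.7, 522.7 and 442.7 CPM (log2 −0.44 ± 0.05, adjusted p = 3.05e-06), and SM4 stood at 697.1 CPM. ERBB2 and ERBB3 rose by 0.27 and 0.23, and of the ligands EREG, HBEGF and EGF fell by 0.39, 0.38 and 0.34.

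**Figure D4:**
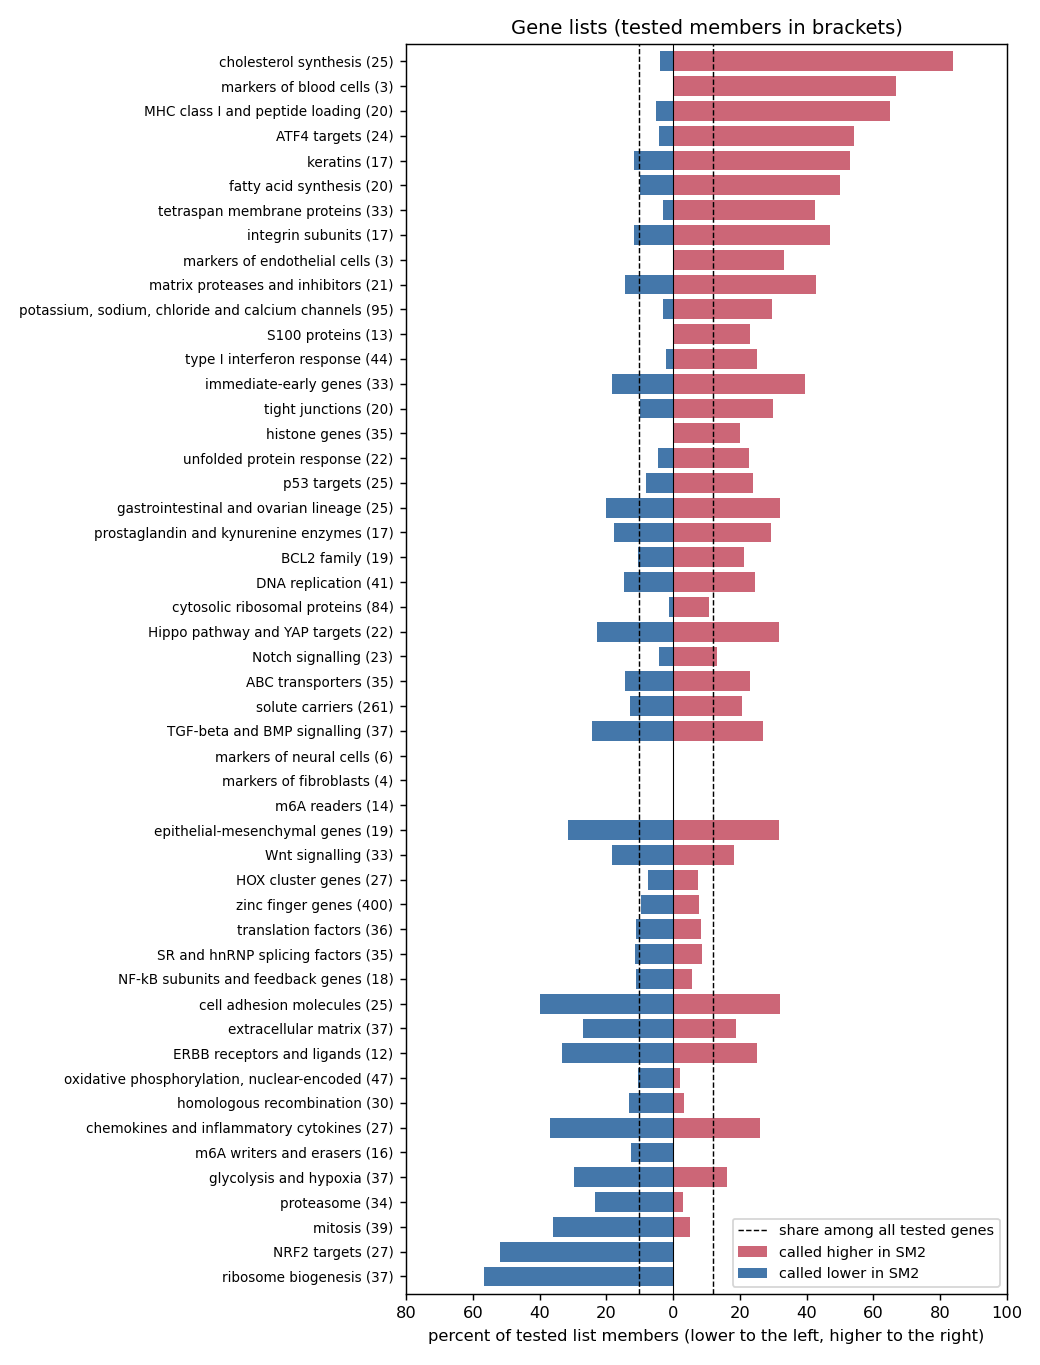
For each gene list shown, the percent of tested members called higher in SM2 (bars to the right) and lower (bars to the left), with the number of tested members in brackets. Dashed lines give the 12% and 10.3% of all tested genes. Over protein-coding genes alone, these shares were 15.9% and 13.5%. Cholesterol synthesis stands at the top with 84% higher, and ribosome biogenesis at the bottom with 56.8% lower.

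Genes with the largest differences in CPM had small fold changes. After KRT8 and KRT18, the largest rises in CPM were PLAT, MAL2, a protein of apical transport (log2 0.71 ± 0.04), CD74, the invariant chain of class II presentation (0.36 ± 0.04), and ITPRID2 (0.45 ± 0.04). The largest falls were TGM2, a protein cross-linking enzyme, from 3414, 3399 and 3419 CPM to 2969, 2902 and 2673 CPM (log2 −0.26 ± 0.04, adjusted p = 6.75e-05), HMGA1, a chromatin architectural protein (−0.25 ± 0.04), HSPA8 (−0.25 ± 0.04) and NCL. HSP90AA1 (−0.14, adjusted p = 0.0103) and PKM (−0.11, adjusted p = 0.0233) were the weakest of these. HSP90AA1 lost its call without NC replicate 2 or SM2 replicate 2, at −0.11 in both cases, and PKM without NC replicate 2, NC replicate 3 or SM2 replicate 2, at −0.11, −0.10 and −0.10. Among long non-coding RNAs, GIHCG rose from 0.411, 0.313 and 0.342 CPM to 1.49, 1.71 and 2.06 CPM (log2 2.31 ± 0.28), LINC02582 by 1.86 ± 0.25 and LINC01133 by 1.60 ± 0.26, and MIR155HG, the host transcript of an inflammatory microRNA, fell from 1.87, 1.51 and 1.54 CPM to 0.503, 0.666 and 0.773 CPM (log2 −1.32 ± 0.26).

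Counts for the m6A machinery stand beside 12% called higher and 10.3% lower over all tested genes, and are not read as a result about the machinery. Of 16 writers and erasers, 0 were called higher by edgeR and 2 lower (12.5%). The counts were 2 and 5 at an unadjusted p below 0.05, 0 and 4 by DESeq2, and 1 and 4 with the trends removed. METTL4, which modifies small nuclear RNA, fell from 46.5, 46.2 and 47.0 CPM to 37.6, 37.0 and 36.3 CPM (log2 −0.33 ± 0.05, adjusted p = 5.09e-05). ZCCHC4, which marks ribosomal RNA, fell by 0.33 ± 0.07. METTL14, WTAP, VIRMA, FTO and ALKBH5 were at 0.02, −0.04, 0.01, −0.08 and −0.12 and none was called. Of 14 readers 0 were called by edgeR or DESeq2, 1 had an unadjusted p below 0.05, and 2 were called higher with the trends removed or without SM2 replicate 3. Of the transcripts that the study follows, chosen in part on these libraries, ADAM23, a cell surface protein of adhesion, fell from 7.16, 6.36 and 6.25 CPM to 4.58, 4.49 and 4.26 CPM (log2 −0.57 ± 0.15, adjusted p = 0.00765), and CA2, a carbonic anhydrase, from 40.3, 44 and 40.0 CPM to 32.5, 31.2 and 33.1 CPM (log2 −0.36 ± 0.06, adjusted p = 0.000127). SM4 was lower still for both, ADAM23 by 0.81 (adjusted p = 0.00131) and CA2 by 0.60 (adjusted p = 6.61e-07). OAS1, OAS2 and HLA-G overlapped between the groups and were not called, at 0.01, 0.17 and −0.12. SM4 was higher than SM2 for all of them, OAS1 by 0.64 (adjusted p = 1.14e-07), OAS2 by 1.02 (adjusted p = 2.24e-05) and HLA-G by 0.47 (adjusted p = 0.0496). Set against SM4 in place of NC, SM2 was thus higher in ADAM23 and CA2 and lower in OAS1, OAS2 and HLA-G, so the direction for ADAM23 and CA2 depends on which group is taken as the control.

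Neighbouring genes shifted together in a few chromosome stretches. Levels were followed along the genome in 664 windows of 30 neighbouring protein-coding genes of at least 5 CPM, with the length and GC trends removed, and runs of at least 3 windows whose medians were 0.1 or more from 0 on the same side were picked after their values were seen, so they carry no test. Of all windows, 16 had a median of 0.1 or more and 29 of −0.1 or less. Gene counts, calls and medians below are from before trend removal unless stated. Among all tested protein-coding genes, at any level, 15.9% were called higher and 13.5% lower. The stretch with the most genes was the distal long arm of chromosome X, at chrX:100644195-154565046, where 104 of 135 genes were positive, 57 were called higher and 8 lower, and the median log2 fold change was 0.15. The median deviation from the NC mean over its genes was 0.14, 0.15 and 0.15 in the SM2 libraries and −0.01 to 0.01 in the NC libraries. On chromosome 11, at chr11:74949261-113875572, 84 of 105 genes were negative, 51 were called lower and 6 higher, and the medians were −0.14, −0.14 and −0.17 in the SM2 libraries. A stretch of chromosome 15, at chr15:34102083-43868412, had 60 of 75 genes negative with 33 called lower and 2 higher. A stretch of chromosome 8, at chr8:28767661-54022448, had 46 of 60 genes positive with 28 called higher and 5 lower, and medians of 0.16, 0.19 and 0.08 in the SM2 libraries. With the trends removed, the SM2 minus NC medians of these 4 stretches were 0.16, −0.11, −0.12 and 0.17. SM4 medians against NC, before trend removal, were 0.06, −0.06, −0.07 and 0.01 in these 4 stretches. Both other runs lay on chromosome 11, at chr11:63974620-67050863 and chr11:67056847-73397474, with medians of −0.11 and −0.12 after trend removal and −0.05 and −0.04 before it. DNA copy number was not measured here, and its part in these stretches was not tested.

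**Figure D5:**
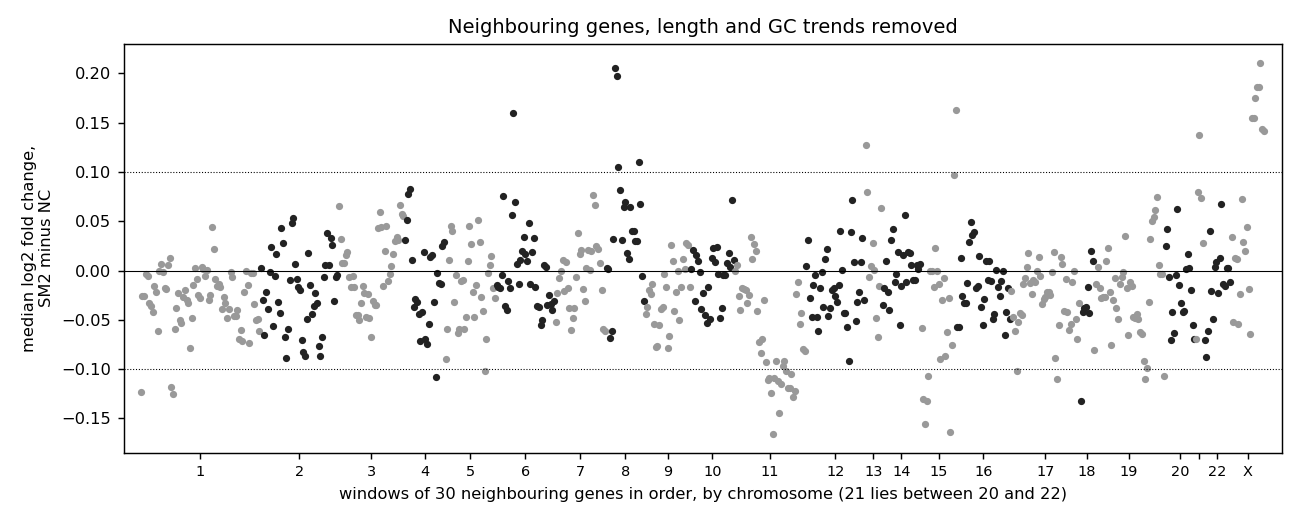
Median log2 fold change in SM2 minus NC (length and GC trends removed) of 664 windows of 30 neighbouring genes, in order along each chromosome, with grey and black alternating between chromosomes; dotted lines mark 0.1 either side of 0. The distal end of chromosome X lies above the upper line, up to 0.211, and part of the long arm of chromosome 11 lies around the lower line.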

How the data were processed

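Raw gene counts of 9 libraries, not normalized, were deposited as 1 table. Per the study's methods and the submitters' processing notes, reads passed through FastQC and fastp, were aligned to GRCh38 (hg38) with HISAT2 and were counted with featureCounts of Subread. Versions, the gene annotation and the strand setting are not given in the sources used here, and the labels and the methods name different library kits and read layouts. The 37 mitochondrial genes had 0 counts in every library.

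Of 60649 identifiers, 60463 matched GENCODE release 44, which gave symbols, positions, length and GC content. In R 4.3.3, filterByExpr of edgeR 4.0.16 kept 19674 genes. Levels are TMM-normalised CPM computed here from the deposited counts (normalization factors 0.989 to 1.01). Groups were compared with edgeR's quasi-likelihood F test on all 9 libraries with group as the only term (6 residual degrees of freedom, common biological coefficient of variation 0.0587), and p-values were adjusted by Benjamini-Hochberg over the 19674 genes. The threshold for a call was 0.05. The alternatives were DESeq2 1.42.0, other normalizations and filters, the 6 libraries alone, a replicate block, removal of trends and leaving out each library. In counts simulated with the spread that this fit had estimated, the fit recovered most of 200 genes changed by known amounts. Those genes were well counted and changed by more than the median called gene. Length and GC trends and an outlying library were not simulated, so this run does not bear on smaller changes or on those features.

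Gene lists were written from general knowledge, and no list was tested as a set: its counts and median stand beside those of all tested genes. Protein-coding genes alone were called more often than all tested genes, 15.9% higher and 13.5% lower. Named genes were METTL3, 5 genes the study follows, the 12 protein-coding genes with the largest rise and the 12 with the largest fall (called, at least 1 CPM, groups not overlapping), the 6 largest rises and 6 largest falls in CPM, 4 long non-coding genes, and up to 4 called members of each list by adjusted p. Some genes that meet this rule or belong to the lists, and 1 list, are not reported here, though list counts include those genes. Other list members in the text were chosen after their values were seen. The comparison, members and lists were chosen with earlier results of these data known. Counts carry no molecular identifiers, so counting error is a lower limit. Trends over length and GC content were removed per library by loess offsets (span 0.3). Figures and tables were made with Python.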

Additional observations from a re-analysis of the deposited data

How the results depend on the processing

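The number of called genes was 4389 and lay between 3829 and 4877 under the other normalizations, filters, fits and DESeq2, and between 3209 and 4623 when a single library was left out (1815 to 2520 higher and 1394 to 2103 lower). Upper-quartile normalization called 2568 higher and 1813 lower. At an adjusted p below 0.01, 2775 genes were called. Genes at least 2-fold numbered 444, 193 with a filter on a mean of at least 1 CPM (177 higher, 16 lower) and 77 by glmTreat, which tests against a 2-fold change; DESeq2 called 47 genes at least 2-fold lower where edgeR called 72. Without single libraries 2-fold genes lay between 395 and 453 (339 to 388 higher, 52 to 97 lower). METTL3 lay between 0.10 and 0.16 without single libraries, and was called only with length and GC trends removed (0.16, adjusted p = 0.031), also together with the replicate block (0.16, adjusted p = 0.0216); its adjusted p over the other alternatives was 0.0631 to 0.363. Without single libraries, OAS1 lay between −0.028 and 0.055 and HLA-G between −0.239 and 0.042, neither of them called.

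Replicate numbers are shared by the groups, but same-numbered NC and SM2 libraries did not deviate together (correlations 0.0169, 0.00728 and 0.033), so the numbers were not taken as pairs. SM2 replicate 2 correlated best with NC replicate 1 (0.00856), and every other library with its own number. With the replicate number as a block 4693 genes were called (2491 higher, 2202 lower) and METTL3 stayed at 0.12 (adjusted p = 0.0986). None of the 214 called genes picked by the rule for named genes lost its call. Over all alternatives 203 of those 214 kept their call and none reversed. BCL2L15, BRCA2, CYLD, E2F1, HOXA2, HSP90AA1, NDUFA4, NUMB, PKM, S100P and TK1 lost it in some setting. Other list members named in the text are not among the 214. Of these, TAP2 was not called with the trends removed, nor ITGB1 without SM2 replicate 3. Genes under 1 CPM rest on fewer than 59 counts a library.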

Other observations

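Genes of growth and stress signalling outside the groups above moved in both directions. Of 33 immediate-early genes, 13 rose and 6 fell (7 and 6 with the trends removed), ATF3, JUND and NR4A1 by 0.75, 0.46 and 0.40 upward and the AP-1 members FOSL1 and FOSL2 by 0.45 each downward. Of 25 p53 targets, 6 rose and 2 fell. TP53INP1, GDF15 and BBC3, which encodes the death protein PUMA, rose by 1.22, 0.76 and 0.64, and MDM2, the ligase that degrades p53, fell by 0.24. The BCL2 family had 4 higher and 2 lower of 19, and 5 and 5 with the trends removed. In the TGF-beta and BMP list 10 of 37 rose and 9 fell (11 and 6 with the trends removed), with the activin subunits INHBB and INHBA up by 1.82 and 0.99 and the receptor BMPR1B down by 0.98. Wnt genes were 6 higher and 6 lower of 33, Notch genes 3 and 1 of 23 (6 and 1 without SM2 replicate 3, 4 and 2 with the trends removed) with the ligand JAG2 up by 0.49 and JAG1 down by 0.54, and Hippo genes 7 and 5 of 22 (9 and 3 without SM2 replicate 3) with YAP1 down by 0.32.

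In metabolism, 6 of 37 glycolysis and hypoxia genes rose and 11 fell, among them HK1 and PDK1 by 0.32 each, while CA12 rose by 0.91. Nuclear genes of oxidative phosphorylation were 1 higher and 5 lower of 47, 1 and 14 without SM2 replicate 3 and 2 and 7 with the trends removed. ABC transporters were 8 higher and 5 lower of 35, but 6 and 7 with the trends removed, with the cholesterol exporter ABCG1 up by 0.96. Tight junction genes were 6 and 2 of 20, CLDN3 rising by 0.83 and CLDN2 by 2.75. CLDN2 did not meet the conditions on level and overlap that were set for the largest rises, so its fold change is less firm. Histone genes were 7 higher and 0 lower of 35 by edgeR and by DESeq2, also with 0 lower at an unadjusted p below 0.05. S100 genes were 3 and 0 of 13 by edgeR, 4 and 0 by DESeq2, and 4 and 2 at an unadjusted p below 0.05, but 3 and 3 with the trends removed and 2 and 1 without SM2 replicate 3. Zinc finger genes were 31 and 39 of 400 (38 and 33 without SM2 replicate 3), HOX genes 2 and 2 of 27, translation factors 3 and 4 of 36 (6 and 2 with the trends removed) and splicing factors 3 and 4 of 35.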
